A study of Saccharomyces cerevisiae with 8 samples.

Results

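The origins of chromosome III, the mating-type chromosome of budding yeast, were examined in lists of ChIP-Exo binding events. All events on the chromosome were taken from 6 lists, the lists were pooled, and events lying no more than 250 bp apart were joined into 1 locus. This gave 390 events in 16 loci, of 9293 events in 355 loci in the genome. Of the 16 loci, 15 lay at origins annotated in RefSeq (build R64) and are called by their ARS names here, and the remaining locus, within the gene VBA3, is called locus 1.

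The lists came from W303 yeast cells that carried a Flag tag either on Mcm4 (strain YC779), a subunit of the MCM2-7 helicase, or on Orc2 (strain YC795), a subunit of ORC, and the same anti-Flag antibody was used throughout. Mcm4 was mapped in cells held in G1-phase with the mating pheromone alpha-factor, and Orc2 in the same G1 arrest and in G2-phase, where nocodazole blocked the spindle. Each of these 3 conditions had 2 replicates, and 2 samples of Orc2 after release from G1 were not analysed here. Each protein was followed in a single tagged strain, so the tagged protein and the strain cannot be told apart, and no list of an untagged strain was analysed here. Arrest with alpha-factor requires MATa cells, while R64 is the sequence of the MATalpha strain S288C, so strain differences at the mating-type loci are not covered.

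In G2-phase the origin recognition complex (ORC) binds origins, and in G1-phase it loads the ring-shaped MCM2-7 helicase onto the same DNA as a double hexamer. In budding yeast ORC recognises the ARS consensus sequence (ACS), a short T-rich element within the A-element. Chromosome III carries, besides the expressed mating-type locus MAT, the silent copies HML and HMR, each flanked by an E and an I silencer. The silencers bind ORC together with Rap1 or Abf1, and ORC there recruits Sir1, which helps to establish silencing. The E and I silencers of HML contain ARS301 and ARS302, and those of HMR contain ARS317 and ARS318. ARS305, ARS306 and ARS307 are known as early and efficient origins, whereas the ARS elements around HML support plasmid replication but are known to be silent as origins in the chromosome.

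The reference sequences are printed for locus 1, for the silencers of HML and HMR and for the 2 loci, ARS306 and ARS314, with the largest changes in ORC percentile between phases in either direction. Locus 1 and ARS306 also had the lowest mean ORC percentiles over the G1 replicates. Each sequence runs 5′ to 3′ along the T-rich strand of its best ACS match, in capitals. It covers 50 bp on each side of the ORC reference position, extended where the match lay farther out. That position is the mean of the highest ORC events of the lists that hold one. The sequences are those of RefSeq, build R64.
locus 1, chrIII:10582-10682, forward strand: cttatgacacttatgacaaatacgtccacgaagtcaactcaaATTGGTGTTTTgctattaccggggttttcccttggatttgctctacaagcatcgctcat
ARS301, chrIII:11242-11342, forward strand: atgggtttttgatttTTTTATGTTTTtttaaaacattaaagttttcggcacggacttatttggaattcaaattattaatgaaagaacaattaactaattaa
ARS302, chrIII:14654-14754, forward strand: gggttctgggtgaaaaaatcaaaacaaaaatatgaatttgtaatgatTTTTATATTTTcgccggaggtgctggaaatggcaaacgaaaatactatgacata
ARS317, chrIII:292610-292710, reverse strand: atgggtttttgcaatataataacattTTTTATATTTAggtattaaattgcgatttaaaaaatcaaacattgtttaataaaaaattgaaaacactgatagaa
ARS318, chrIII:294758-294893, forward strand: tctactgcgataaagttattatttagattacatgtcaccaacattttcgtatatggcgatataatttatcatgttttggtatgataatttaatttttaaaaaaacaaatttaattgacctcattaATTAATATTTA
ARS306, chrIII:74417-74531, forward strand: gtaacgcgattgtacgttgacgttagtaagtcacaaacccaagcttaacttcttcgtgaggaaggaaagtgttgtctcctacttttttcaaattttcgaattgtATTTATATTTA
ARS314, chrIII:197493-197593, reverse strand: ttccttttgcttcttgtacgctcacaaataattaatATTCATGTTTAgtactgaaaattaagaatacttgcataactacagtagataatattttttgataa

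The capitals matched the ACS at all 11 positions in ARS301, ARS302, ARS306 and ARS317, at 10 positions in ARS314 and ARS318, and at 9 positions in locus 1. The printed stretches of the E silencers, ARS301 and ARS317, open with the same 11 bases, atgggtttttg, which ended 4 bases before the ACS match in ARS301 and 15 bases before it in ARS317. Within 100 bp of the ORC reference position this stretch occurred, on either strand, at 2 of the 354 loci with an ORC event (0.565%), which were these 2. The stretch was picked after the sequences had been compared.

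Chromosome III was the most densely occupied chromosome in these lists when all loci were counted. It held 5.05 loci per 100 kb, against 2.88 on the other chromosomes together, and the next densest was chromosome I with 4.78 loci per 100 kb. When only loci with an event in all 6 lists were counted, locus 1 dropped out. Chromosome III then had 4.74 per 100 kb and came second to chromosome I, also at 4.78. The gap between neighbouring loci had a median of 22797 bp on chromosome III and 31378 bp elsewhere. Neighbours closer than 5000 bp accounted for 5 of 15 gaps (33.3%), but for 10 of 324 (3.09%) on the other chromosomes, and 4 of these 5 lay within the HML and HMR regions. The closest separate neighbours were locus 1 and ARS301 (316 bp) and ARS302 and ARS303/ARS320 (328 bp), and the widest gap within a locus was 182 bp, at ARS315. The remaining close pair was ARS313 and ARS314, 2802 bp apart. No test was made between chromosomes, since loci are not replicates.

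**Figure D1:**
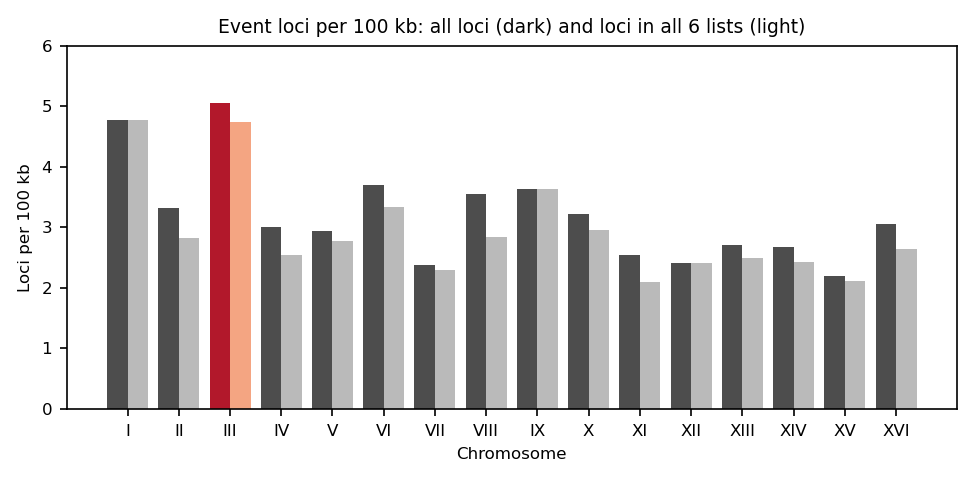
Loci per 100 kb (vertical axis) on each of the 16 chromosomes (horizontal axis), for all loci (dark bars) and for loci with an event in all 6 lists (light bars), with chromosome III in red. Chromosome III stands highest for all loci, at 5.05 per 100 kb, and just below chromosome I for loci in all lists, at 4.74 against 4.78.

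The lists held 75 events on chromosome III in each MCM2-7 replicate, 52 and 60 for ORC in G1, and 96 and 32 for ORC in G2. Genome-wide the lists held between 861 and 2178 events, and ORC in G2 had both the shortest list (replicate 2) and the longest (replicate 1). Read counts are not part of the lists, and the study gives read depth only in general terms, so the depth of each library is unknown. Of the 16 loci, 15 (93.8%) had an event in every list, against 90.7% of all loci. Such a locus had a median of 26 events over a median span of 360 bp on chromosome III, and 27 events over 369 bp elsewhere.

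RefSeq lists 19 origins on chromosome III, of which 16 (84.2%) had a locus within 250 bp, against 271 of 333 (81.4%) on the other chromosomes. The 3 without a locus were ARS300 at the left end, ARS304 on the left arm and ARS308 at the centromere CEN3, where the nearest events were 9284, 8856 and 5278 bp away. No event fell within the MAT locus (the nearest was 905 bp away, at ARS314) or within the centromere. HML and HMR as annotated extend over their silencers and held 36 and 49 events. All of these events belonged to ARS301, ARS302, ARS317 or ARS318. An absent event says only that none passed the authors' thresholds.

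All loci except locus 1 had their ORC reference position between genes. From left to right they were ARS301 (III: 11074 to 11421), ARS302 (14659 to 14782) and ARS303/ARS320 (15110 to 15521) at HML, ARS305 (39513 to 39678) between APA1 and YCL049C, and ARS306 (74304 to 74703) between HBN1 and FRM2. Nearest to the centromere were ARS307 (108768 to 109043), between LDB16 and PGS1, and ARS309 (131840 to 132259), between RVS161 and ADY2. The right arm held ARS310 (166514 to 166914) between NPP1 and RHB1, ARS313 (194162 to 194523) between RBK1 and PHO87, ARS314 (197325 to 197766) between PHO87 and BUD5, ARS315 (224668 to 225011) between TAH1 and TVS1, and ARS316 (272896 to 273139) between YCR090C and KIN82. HMR held ARS317 (292480 to 292790) and ARS318 (294644 to 295003). ARS319 (315646 to 316032) lay with its middle 781 bp from the right end.

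The loci differed in width. ARS302 was the most compact, with 18 events in 124 bp, followed by ARS305 with 27 events in 166 bp. ARS314 was the widest, with 30 events over 442 bp, and ARS313 held the most events, 36 over 362 bp. ARS310 had the fewest events of the loci found in every list, 16 over 401 bp. The number of events at a locus does not count bound molecules, as the event caller can split or merge neighbouring peaks.

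**Figure D2:**
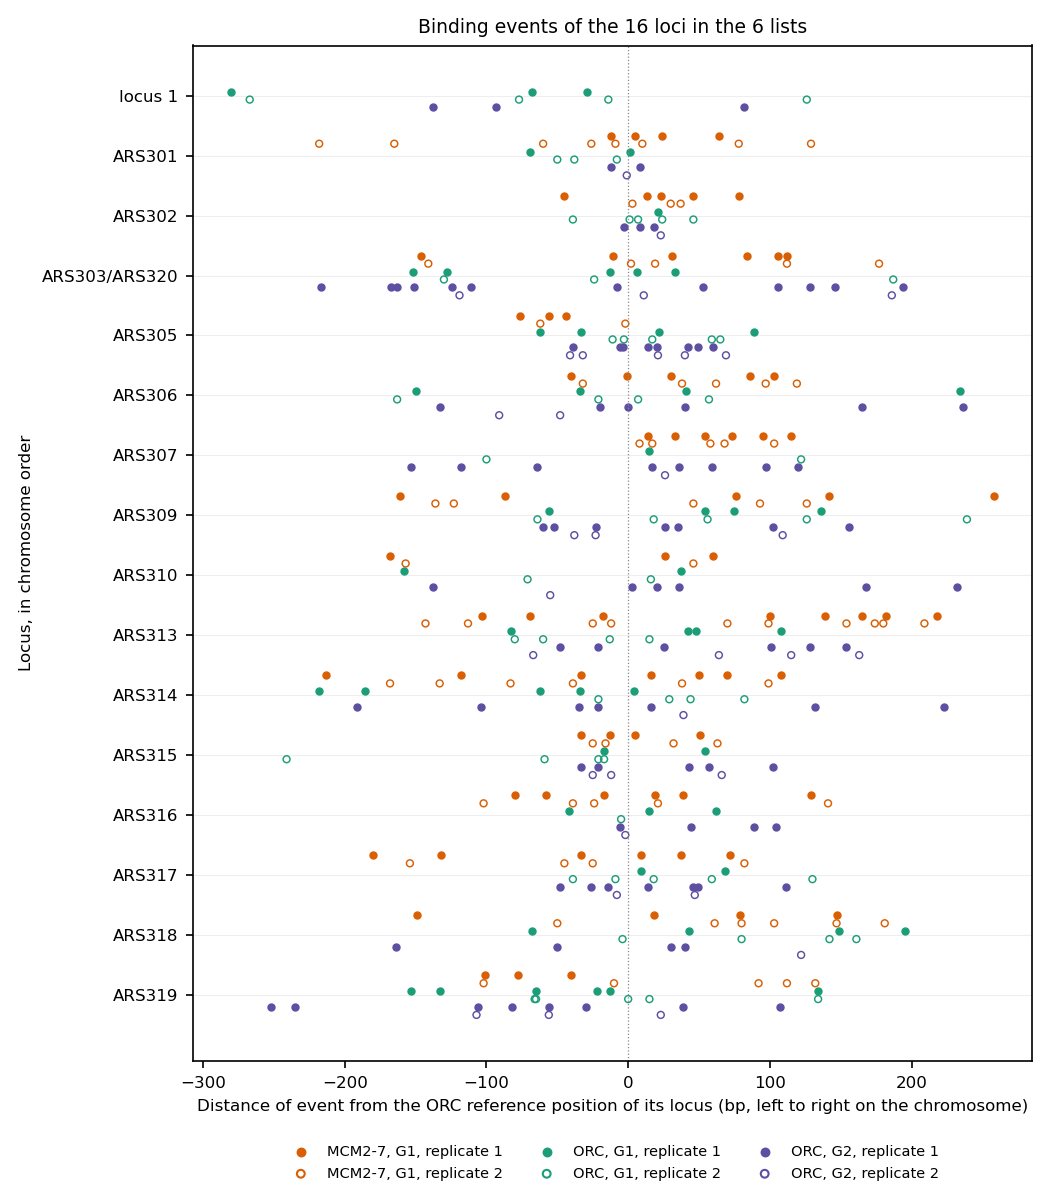
Distance of each of the 390 events from the ORC reference position of its locus (horizontal axis, bp) for the 16 loci in chromosome order (vertical axis), coloured by protein and phase, with filled points for replicate 1 and open points for replicate 2. ARS302 and ARS305 form narrow groups of 124 and 166 bp, whereas ARS313, ARS314 and ARS309 spread over 362 to 442 bp, and locus 1 has no MCM2-7 event.

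Event positions were compared between the replicates within each locus, and no level for randomly placed events was worked out. Within 25 bp of an event of the other replicate lay 78% of the MCM2-7 events on chromosome III (75.4% elsewhere), 62.5% of the ORC events in G1 (59.5% elsewhere) and 53.6% of those in G2 (53.3% elsewhere). The highest-scoring event of a locus moved between replicates by a median of 20 bp for MCM2-7, 32 bp for ORC in G1 and 58 bp for ORC in G2, against 21, 33 and 36 bp elsewhere. At ARS303/ARS320 the highest ORC events in G2 were 353 bp apart between replicates, and at ARS318 they were 172 bp apart, whereas at ARS301 the highest ORC events of the replicates were 9 bp apart in each phase.

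Each event carries a score, a whole number from 66 to a cap of 1000 whose scale the study does not define. It was therefore used only to rank events within a list. The percentile of a locus is that of its highest event among all events of the list, with 100 for the highest. Many events shared the cap (59.1% and 51.9% of MCM2-7 events, 29.4% and 35.4% of ORC events in G1, 11% and 6.97% in G2). An event at the cap was thus at percentile 70.5 or 74.1 for MCM2-7, 85.3 or 82.3 for ORC in G1, and 94.5 or 96.6 for ORC in G2. To separate loci at the cap, the 322 loci with an event in every list were also ordered by their first-listed event. The lists run largely from high to low score, with 30 to 301 exceptions a list. What sets the order among events at the cap is not known. Of the 322 loci, 96.9% and 93.2% had an event at the cap in the MCM2-7 replicates. Most MCM2-7 orders thus separate loci with equal highest scores. Order 1 is the earliest.

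The silencers of HML and HMR-E stood at the head of the ORC lists. ARS301 (HML-E) had the orders 7 and 10 in the G1 replicates and 8 and 11 in the G2 replicates. ARS302 (HML-I) had 1 and 18 in G1 and 9 and 5 in G2. ARS317 (HMR-E) had 11 and 82 in G1 and 25 and 13 in G2. The highest event of these 3 loci was at the cap in all 4 ORC lists, which held for 3 of 15 loci on chromosome III and for 48 of 322 loci in all (14.9%). With a limit of 30, chosen after the values had been seen, ARS301 and ARS302 were 2 of the 6 loci in the genome (1.86%) that stayed within it in all 4 ORC lists, and HMR-E fell beyond it in G1 replicate 2 alone.

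MCM2-7 at these silencers lay farther down the lists. ARS301 had the MCM2-7 orders 88 and 191, ARS302 had 159 and 120, and ARS317 had 186 and 179, each behind all 4 ORC orders of the same locus. This pattern, all ORC lists ahead of both MCM2-7 lists, held at 6 of 15 loci on chromosome III and at 23% of all loci. Besides the 3 silencers it held at ARS303/ARS320, ARS309 and ARS318. It compares places in lists of different proteins, which do not measure amounts.

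HMR-I (ARS318) differed from the other silencers. Its highest MCM2-7 events scored 803 and 869, below the cap in both replicates, which no other locus of the chromosome showed, and it had the last MCM2-7 order of the chromosome in replicate 1 (315) and the second to last in replicate 2 (307, before ARS309 with 309). Its ORC events were at the cap in both G1 replicates and scored 434 and 162 in the G2 replicates, with the orders 207 and 95 in G1 and 237 and 238 in G2. The highest MCM2-7 and ORC events in G1 were 147 bp apart there in replicate 1 and 65 bp in replicate 2. HMR-I was also the only 1 of the 16 loci with a full match to the binding consensus of Abf1, a general regulatory factor of silencers and origins, searched on both strands within 100 bp of the ORC reference position. Such a match was found at 6 of 354 loci in all (1.69%). ARS301, ARS302 and ARS317 each matched at 11 positions, against 13 at ARS318, and so did loci away from the silencers such as ARS305. A search for full matches near 1 position can miss bound sites. Abf1 binding was not tested, so the other silencers may bind it too.

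ARS303/ARS320, next to HML-I, shared none of the early ORC orders of its neighbour 328 bp away. Its ORC orders were 130 and 249 in G1 and 204 and 236 in G2, and its MCM2-7 orders were 297 and 257. In G2 replicate 1 it held 12 events, the most of any locus of the chromosome in any list, spread over both sides of the reference position.

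Locus 1 was the weakest locus and had no MCM2-7 event. It held 3 and 4 ORC events in the G1 replicates, with highest scores of 173 and 139 (percentiles 16.4 and 13.1), 3 in G2 replicate 1 with a highest score of 202 (percentile 40.5), and none in G2 replicate 2. It lay within VBA3, a gene of a vacuolar transporter family, and ended 316 bp before ARS301. The whole locus is part of a stretch of 481 bp (III: 10349 to 10829) that occurs without a mismatch on chromosome XI (658969 to 659449), in VBA5. Of its 162 words of 40 bp, 162 were repeated in the genome. No event was listed at the copy, and the nearest was 16168 bp from it. An aligner cannot assign reads from within such a stretch to 1 of the copies, and the part of this in the result was not tested.

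ARS319, at the right end, showed the opposite order of the silencers, with MCM2-7 at 9 and 31 and ORC at 183 and 47 in G1 and 144 and 142 in G2. The MCM2-7 orders ahead of all 4 ORC orders were found at ARS306, ARS310 and ARS319, 3 of 15 loci, and at 20.8% of all loci. Of the 162 words of 40 bp around ARS319, 89 (54.9%) recurred at 20 places near other chromosome ends or the left end of III, of which 11 had an event within them, and the part of these copies in the orders of ARS319 was not tested. The other 14 loci of the chromosome had no repeated word, and 9.89% of all loci had at least 1.

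Among the arm origins, ARS310 had MCM2-7 orders of 46 and 65 and ORC orders of 126 and 252 in G1 and 250 and 134 in G2. ARS305 came early for MCM2-7, at 51 and 58, and for ORC in G2, at 41 and 35, while its ORC orders in G1 were 294 and 60. These G1 replicates disagreed more than those of any other locus of the chromosome. ARS315 had MCM2-7 orders of 52 and 127 and ORC orders between 104 and 201, and ARS307 had 122 and 77 for MCM2-7 and between 73 and 282 for ORC. At the late end, ARS313 and ARS316 had orders from 199 to 304 in all 6 lists. Over the 15 loci, the median order was 159 and 152 for MCM2-7, 177 and 158 for ORC in G1, and 204 and 175 for ORC in G2, where the other 307 loci had medians of 160 to 162.

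**Figure D3:**
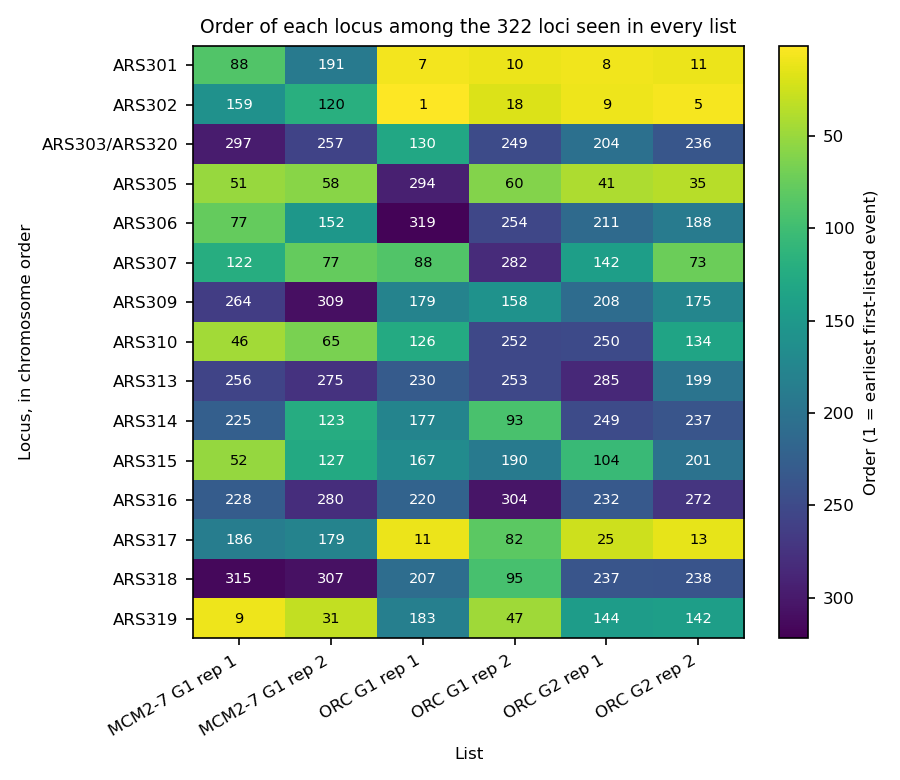
Order of the 15 loci of chromosome III found in every list (rows) among the 322 such loci of the genome, in each of the 6 lists (columns), where 1 (yellow) is the locus whose event is listed first. ARS301, ARS302 and ARS317 are early in the ORC lists (1 to 82) and later in the MCM2-7 lists (88 to 191), ARS319 has its earliest orders for MCM2-7 (9 and 31), and ARS313 and ARS316 are late throughout (199 to 304).

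To ask whether ORC changed between phases, the percentiles in G1 and G2 were compared with limma over the 322 loci. No locus of chromosome III passed the adjusted p threshold of 0.05, and none did elsewhere (0% called). The smallest adjusted p was 0.356, and 21 loci had an unadjusted p under 0.05, 13 higher and 8 lower in G1, of which 2 were on chromosome III. On the log2 score these counts were 33 higher and 0 lower. That scale moved the median of all loci to a score higher by 0.65 (log2) in G1, with 4.04% of all loci below 0, against 65.5% by percentile, and 3 of the 15 loci of chromosome III below 0, against 9. Differences in percentile are thus relative to each list, and their sign does not carry over to the score. With 2 replicates the spread at a locus is poorly known. The loci are described by their values below, and none of these differences is a call.

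Of the loci found in every list, ARS306 had the lowest mean ORC percentile in G1. It was at 22.4 and 40 in the G1 replicates (scores of 220 and 401), where 4 other loci were lower in replicate 2, against 75.4 and 63.7 in G2 (scores of 531 and 248). The difference, G1 minus G2, was -38.4 (SE 9.32, limma adjusted p = 0.356), and the phases did not overlap. In order, ARS306 was at 319 and 254 in G1 and at 211 and 188 in G2, again without overlap, while MCM2-7 was at 77 and 152. MCM2-7 was thus ahead of ORC in both phases.

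ARS314, between PHO87 and BUD5 on the side of MAT that faces the centromere, went the other way. Its ORC percentiles were 85.3 and 82.3 in G1 (both at the cap) and 65.7 and 47.7 in G2 (scores of 392 and 169), a difference of 27.1 (SE 8.37, limma adjusted p = 0.356). Its orders were 177 and 93 in G1 and 249 and 237 in G2. ARS318 had the same percentiles as ARS314 in G1 and 69.3 and 45.2 in G2, a difference of 26.6 (SE 10.3, adjusted p = 0.356 by limma).

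ARS305 had percentiles of 42.9 and 82.3 in G1 and was at the cap in both G2 replicates, so that the difference was -33 (SE 15.6, limma adjusted p = 0.418). Without G1 replicate 1 the difference was -13.2, which is the difference between the percentiles of the cap, and ARS305 was then at the cap in every ORC list left. The change at ARS305 thus rests on 1 list. At ARS307 the difference of -33.9 (SE 23.9, limma adjusted p = 0.507) rested on G1 replicate 2 (percentile 23.3), since without that list it was -2.86.

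Counted by overlap, 3 loci (ARS309, ARS314 and ARS318) had both G1 percentiles above both G2 percentiles, where 14.3% of all loci did. Both G1 percentiles were below both G2 percentiles at 6 loci (ARS301, ARS302, ARS305, ARS306, ARS307 and ARS317), where 35.1% of all loci did. For ARS301, ARS302 and ARS317 the difference of -11.7 only reflects the larger share of events at the cap in G1, as they were at the cap in all 4 lists. By order, which removes this, G1 lay ahead of G2 at ARS314 and ARS318 (2 loci, against 21.4% of all loci) and behind it at ARS305 and ARS306 (2 loci, against 22.4%). At ARS301 and ARS302 the orders of the phases overlapped, between 1 and 18 in all 4 lists. The orders were added after the data had been seen.

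**Figure D4:**
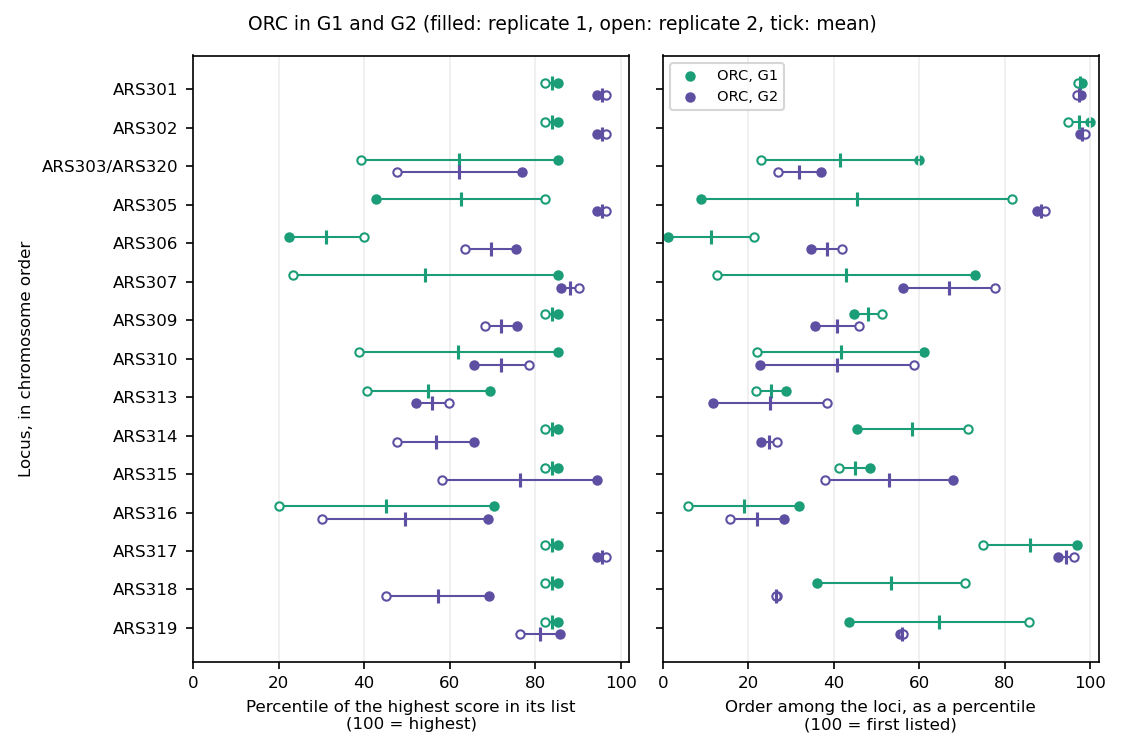
ORC in G1 (green) and G2 (purple) at the 15 loci of chromosome III found in every list (rows), as the percentile of the highest score in its list (left) and as the order among the loci turned into a percentile (right), both from 0 to 100, with filled points for replicate 1, open points for replicate 2 and ticks for their mean. ARS306 is lower and ARS314 and ARS318 are higher in G1 in both panels, none past the adjusted p threshold, while ARS301, ARS302 and ARS317 differ by -11.7 (G1 minus G2) on the left and overlap on the right.

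The positions of the 2 complexes in G1 were compared within each locus. Joining events at up to 250 bp limits these distances in advance, and no level for randomly placed events was worked out. Between replicates the highest ORC event in G1 itself moved by a median of 32 bp on chromosome III. The highest MCM2-7 event and the highest ORC event, averaged over replicates, were a median of 30.5 bp apart on chromosome III (range 2.5 to 106, n = 15 loci) and 40 bp apart elsewhere (n = 331 loci). Each replicate alone gave a median of 23 or 39 bp. The distance at a single locus often differed between the replicates, and averaged positions can hide this. ARS301 was close in both replicates, at 13 and 18 bp, as were ARS310, at 11 and 30 bp, and ARS305, at 23 and 1 bp. ARS313 was wide in both, at 65 and 84 bp. At ARS309 the replicates gave 1 and 157 bp, and at ARS303/ARS320 they gave 152 and 43 bp.

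A full ACS match lay within 100 bp of the ORC reference position at 8 of 16 loci (50%, 95% Wilson interval 28 to 72) and at 119 of 354 loci in all (33.6%). Within 50 bp it was 31.2%, close to the 28.2% of all loci. Matches at 10 or more positions were found at 14 of 16 loci (87.5%), against 83.1% of all loci, and the exceptions were locus 1 and ARS316. The 8 loci with a full match were ARS301, ARS302, ARS306, ARS307, ARS310, ARS315, ARS317 and ARS319. They thus included the E silencers of HML and HMR and the I silencer of HML, but not ARS318. A match is a stretch of letters and was not tested for ORC binding.

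Relative to these full matches, the highest events lay mostly downstream along the T-rich strand. This held for 13 of 16 highest MCM2-7 events on chromosome III (81.2%, against 74.3% elsewhere), for 13 of 16 for ORC in G1 (81.2%, against 71.6%) and for 11 of 16 for ORC in G2 (68.8%, against 70.2%). The median position was 25.5, 20.5 and 24.5 bp downstream of the middle of the match. The 16 events of a group come from 8 loci in 2 replicates and are not independent. No level for randomly placed events was worked out. At ARS301 the MCM2-7 events were at 18 and 40 bp and the ORC events between 22 and 38 bp. At ARS302 the MCM2-7 events were at 11 and 28 bp and the ORC events at 19 and -41 bp in G1 and at -5 and 21 bp in G2. At ARS317 MCM2-7 was at 52 and 44 bp and ORC at 10 and 28 bp in G1 and at 67 and -28 bp in G2. Exceptions were ARS319, where both highest MCM2-7 events lay upstream, at -6 and -30 bp, and ARS306. At ARS306 ORC lay upstream in all 4 lists, at -18 and -52 bp in G1 and -59 and -107 bp in G2, and MCM2-7 lay at 27 and -91 bp.

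**Figure D5:**
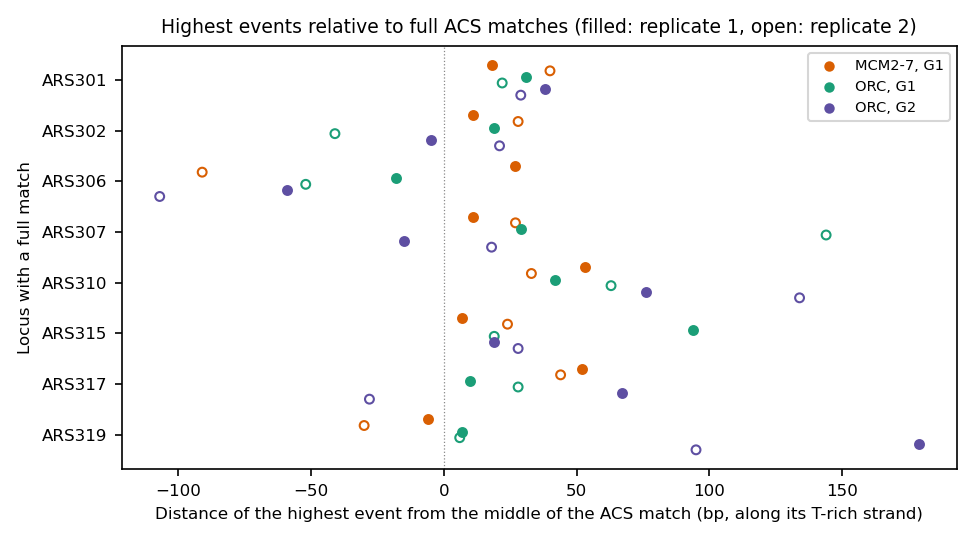
Distance of the highest event of each list from the middle of the ACS match (horizontal axis, bp, positive downstream along the T-rich strand) at the 8 loci with a full match (rows), for MCM2-7 in G1 (orange), ORC in G1 (green) and ORC in G2 (purple), with filled points for replicate 1 and open points for replicate 2. Most points lie to the right of 0 (37 of 48), and ARS306 has all 4 ORC points to the left.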

How the data were processed

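ChIP-Exo libraries of W303 cells (2 replicates per condition) were aligned by the authors with Bowtie2 (version 2.3.5, default settings) to sacCer3, which is R64, and events were called on each replicate with ChExMix, excluding tRNA genes and the rDNA. The deposited lists give a position and a score per event, not normalized between lists, and 6 lists were used. The score is a whole number with a cap of 1000, the lists hold no read counts, and the depth of each library is unknown. Beyond the default settings of the aligner, how reads with several equal matches and duplicates were treated is not given in the sources used here.

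Events were joined at up to 250 bp, and loci were set against RefSeq annotation. Percentiles are mid-ranks within a list. G1 and G2 were compared with limma (3.58.1, R 4.3.3) over 322 loci with Benjamini-Hochberg adjustment, and the fit was tested on simulated data. Figures and counts were made with Matplotlib 3.10.9, SciPy 1.17.1, pandas 2.3.3 and NumPy 2.4.6 under Python 3.11.15. The ACS and the Abf1 consensus were searched on both strands within 100 bp of the ORC reference position, and overlapping matches were allowed. Loci at HML and HMR lay within 2000 bp of them. Named were loci with events in 4 or more lists and loci at HML, HMR, the ends or the centromere. The sequence of 1 further locus at HML is not reported here. Alternatives were other chaining distances, other values of a locus, other windows and each list left out. The members and lists were chosen with earlier results of these data known.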

Additional observations from a re-analysis of the deposited data

How the results depend on the processing

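With chaining distances of 100 or 500 bp, or with any list left out, chromosome III held between 14 and 19 loci and between 14 and 15 in every list. When only events not below the median score of a list were kept, 15 loci remained, of which 5 were in every list. Genome-wide, 0 loci were called between the phases by the percentile, by the place in the list, the log2 score or the mean over events, with missing events set to 0, with either chaining distance and by order. Leaving out 1 ORC list gave 0 to 7 calls, namely 7 without Orc2 G2 replicate 1 and 1 without Orc2 G2 replicate 2, and 0 on chromosome III in each case. The phase of the list left out then had 1 sample, assumed to vary like the replicates of the other phase, so these calls rest on the spread within that phase alone. The replicate block also gave 0 calls. The sample labels do not say whether replicates of the same number were prepared together. The correlation over 322 loci of the difference between replicates, G1 against G2, was 0.0965. It cannot decide this, as many percentiles are fixed by the cap.

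The number of loci with G1 below G2 was 2 by the place in the list and 2 by order, against 6. The difference in percentile at 15 loci changed sign under an alternative at 8 of them. By the place in the list it was 0.182 at ARS301 and -1.56 at ARS315, and by order 0.311 at ARS301, 0.932 at ARS310, 0.155 at ARS313 and -8.07 at ARS315. By the mean over events it was -9.05 at ARS309, 16 at ARS313 and 2.47 at ARS316. With 1 list left out it ranged from -23 to 23.1 at ARS303/ARS320, -33.3 to 13.2 at ARS310, -15.3 to 13.5 at ARS313, -10.7 to 25.5 at ARS315, -29.4 to 20.9 at ARS316 and -2.09 to 7.36 at ARS319. ARS306, ARS314 and ARS318 kept their direction, with ranges of -47.2 to -29.5, 18.2 to 36.1 and 14.6 to 38.7. ARS305 ranged from -52.7 to -13.2, but its -13.2, without G1 replicate 1, is only the difference between the percentiles of the cap. The log2 score, on which signs did not carry over, was not among these alternatives at single loci. The cause of the changes in sign was not tested. The adjusted p at a named locus ran from 0.334 to 0.99 over these alternatives.

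The median distance between MCM2-7 and ORC was 40.2 bp from mean positions, with 40.2 bp elsewhere. The share of full ACS matches on chromosome III was 31.2% within 50 bp (28.2% of all loci), 56.2% within 200 bp (38.7%) and 60% around the MCM2-7 events (31.5%).

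Depth per library is unknown, so an absent event sets no upper limit. The score is capped and its scale is not defined, so percentiles and orders compare places in lists and not amounts of protein.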
